A study of Mus musculus with 2 samples.

Results

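Interferon-responding T cells are spleen T cells in which several genes switched on by interferon were detected at the same time. A T cell was counted as a member when molecules of at least 3 of 7 such genes, Ifit1, Ifit3, Ifit3b, Isg15, Rsad2, Usp18 and Oasl2, were found in it and no molecule of the B cell gene Cd79a. By this rule 340 of 15278 T cells were members, out of 16123 cells kept and 17299 putative cells in all. The 7 rule genes chose the cells, so their values in members are given as a description, and so is every comparison of members with other T cells, since all genes of a cell come from the same barcode.

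Type I interferons bind a receptor made of Ifnar1 and Ifnar2, and interferon gamma binds one made of Ifngr1 and Ifngr2. Both receptors act through JAK kinases on STAT transcription factors, and type I signalling yields a complex with STAT2 and IRF9 that binds interferon-stimulated response elements in the promoters of antiviral genes. In lymphoid tissue a small fraction of T cells carries this programme even without an infection.

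The cells came from spleens of female C57/BL6N mice (the protocol text writes C57BL/6) in 3 groups of 3 mice. One group received saline, and the other groups received remimazolam, a short-acting benzodiazepine, at 6 mg/kg and were sampled 4 h or 8 h later. No age, mutant allele or vehicle-time control is given: the labels place saline at 0 h, so no saline group stands at 4 h or 8 h. Cells of the 3 mice of each group shared 1 sample tag (a barcode carried by an antibody), and the 3 pools were captured together on the BD Rhapsody platform, so 1 pool stands for each treatment and the mice of a pool cannot be told apart. The sort is given as CD45+CD3+CD5+ in one place and as CD45+ in another. There is no replicate check of any difference between pools, and no p-value is given. Intervals are 95% intervals for counting error only (exact Clopper-Pearson for shares, exact conditional-binomial for ratios), and both comparisons with saline share that pool.

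The members carried the genes of T cells. Trac, a constant segment of the T cell receptor, stood at 1815, 1699 and 2038 CPM (counts of a gene scaled to the summed molecules of the class) in members of the saline, 4 h and 8 h pools, against 1909, 1852 and 1940 CPM in other T cells. Cd3e, a signalling chain of the same receptor, stood at 736, 688 and 754 CPM in members against 762, 784 and 760 CPM. Cells of both classes were required to hold a Cd3d, Cd3e or Cd3g molecule, so the presence of Cd3 transcripts was set by that choice. Members were slightly deeper than other T cells: the median member held 2844, 2684 and 2766 molecules in the saline, 4 h and 8 h pools, and the median other T cell 2544, 2527 and 2529. Summed over a pool, members held 320663, 410142 and 275759 molecules, so that 3 molecules of a gene correspond to 9.36, 7.31 and 10.9 CPM. Cells called multiplets by the authors were left out, and 18 members held over 2 times the median molecules of T cells. Of 1045 such multiplets with a Cd3 molecule, 4.59% (3.41 to 6.04) had 3 or more rule genes at a median depth of 4493 molecules. Among 392 cells with Cd79a and no Cd3 molecule, which should be B cells, 3 had 3 or more rule genes (0.765%, 0.158 to 2.22, median depth 2180 molecules), against 2.23% (2.0 to 2.47) of T cells at 2538.

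The rule genes were detected in members to different extents. Ifit1 and Ifit3, which encode proteins that bind foreign RNA, were found in 87.9% and 75.9% of the 340 members. Isg15, a ubiquitin-like modifier, was found in 62.4%, and Usp18, the protease that removes it and also dampens the type I receptor, in 51.2%. Oasl2, of the oligoadenylate synthetase family, was found in 46.2%, Ifit3b, a near copy of Ifit3, in 42.1%, and Rsad2, which encodes the antiviral enzyme viperin, in 34.4%. In other T cells the shares lay between 0.616% for Rsad2 and 5.93% for Ifit1. Members combined the genes in 76 ways, of which Ifit1 with Ifit3 and Isg15 was the most frequent, in 22 members, and 13 members had all 7. No single combination therefore stood for the class.

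The promoters of the rule genes show what most of them share that the rule did not use. The letters GAAA, any 2 bases and GAAA again, which read TTTC, any 2 bases and TTTC on the opposite strand, are the core of an interferon-stimulated response element. A window from 250 bases before to 50 after the start was taken from RefSeq promoters of GRCm38.p6, and overlapping matches were counted separately. Of the 7 rule genes 6 had a promoter in that table, and 5 of these held the letters, against 3.44% of all 32851 promoters and 3.27% of the 7421 matched promoters of the genes measured below. Of 141 interferon genes outside the rule, 110 had a promoter there and 44 of them (40.0%) held the letters. The 5 windows of 60 bases are printed 5′ to 3′ on the strand of the gene, with the matches in capitals, because all 5 hold the element at least once. Of the 15 named genes outside the rule described below, 8 had a promoter in the table and 2 of these held the letters. They lie at chr19:34640772-34640831 (plus strand, Ifit1), chr19:34583360-34583419 (plus, Ifit3), chr19:34607756-34607815 (plus, Ifit3b), chr4:156200850-156200909 (minus, Isg15) and chr12:26456526-26456585 (minus, Rsad2).
Ifit1: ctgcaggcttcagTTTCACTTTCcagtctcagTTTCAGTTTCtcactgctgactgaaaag
Ifit3: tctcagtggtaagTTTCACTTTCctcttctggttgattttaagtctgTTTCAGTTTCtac
Ifit3b: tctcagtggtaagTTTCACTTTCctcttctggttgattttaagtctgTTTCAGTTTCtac
Isg15: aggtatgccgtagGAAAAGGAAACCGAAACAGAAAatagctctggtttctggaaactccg
Rsad2: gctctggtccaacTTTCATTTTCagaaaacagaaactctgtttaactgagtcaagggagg

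Ifit1, Ifit3 and Ifit3b carried 2 matches each, Isg15 3 overlapping ones and Rsad2 1, and the letters were not in the window of Oasl2, from which nothing follows about the factor. The windows of Ifit3 and Ifit3b were identical at 60 of 60 bases. Ifit3 (chr19:34583531-34588731 in GENCODE M21), Ifit3b (chr19:34607970-34613401) and Ifit1 (chr19:34640871-34650009) are protein-coding neighbours on the plus strand. Of the 50-base stretches in Ifit3 transcripts, 51.2% also occur in Ifit3b, and 44.5% the other way round, so the division of molecules between the pair is uncertain. Usp18 (chr6:121245906-121270917, plus strand) overlaps the antisense gene Gm44148, and whether the counting used strand is not stated, so reads of the pair may not be separable.

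Each rule gene was also measured in cells that the other 6 genes chose. In cells with 3 or more of the other 6, Ifit1 was detected in 78.5%, 82.5% and 84.5% of cells in the saline, 4 h and 8 h pools, against 6.18%, 7.14% and 6.60% of the rest. Rsad2, the rarest, was detected in 26.0%, 31.3% and 31.1% against 0.549%, 0.940% and 0.813%. The ratio of CPM between such cells and the rest ran from 11.2 (8.55 to 14.6) for Usp18 at 4 h to 65.4 (41.2 to 105) for Rsad2 in saline. In all 3 pools each of the 7 genes was thus more frequent where the others were found. Ifit3 and Ifit3b share sequence, so for this pair reads of either gene may have chosen the cells for the other. Members were slightly deeper than other T cells, and the part of depth in these values was not tested.

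A small class of cells held a large part of these transcripts. Members held 2.33%, 2.91% and 1.96% of all T cell molecules in the saline, 4 h and 8 h pools. Of the Rsad2 molecules they held 67.1%, 65.8% and 64.9%, and of the Ifit3b molecules 56.8%, 71.1% and 59.4%. Of the Usp18 molecules they held 38.5% in saline (31.8 to 45.6), against 29.2% (24.3 to 34.5) and 28.0% (22.8 to 33.6) in the treated pools. Outside the rule, the antiviral Schlafen gene Slfn5 had 15.1%, 19.6% and 14.2% of its molecules in members.

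Members were most frequent in the 4 h pool. They made up 102 of 5013 T cells in saline (2.03%, 1.66 to 2.46), 140 of 5133 in the 4 h pool (2.73%, 2.30 to 3.21) and 98 of 5132 in the 8 h pool (1.91%, 1.55 to 2.32). The share at 4 h was 1.34 times that in saline (1.03 to 1.75). The share at 8 h was 0.939 times that in saline (interval from 0.704, including 1), and the share at 8 h was 0.700 times that at 4 h (0.535 to 0.913). The difference at 4 h exceeded counting error, but whether it exceeds the spread between mice cannot be told from 1 pool a treatment. With at least 3 Cd3 molecules required of a T cell the ratio at 4 h was 1.17 (0.879 to 1.57), and with every cell thinned to 1500 molecules it was 1.33 (0.934 to 1.92), so in both the interval included 1.

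The excess at 4 h lay among cells with more than 3 rule genes. Cells with exactly 3 were 50, 49 and 45 in the saline, 4 h and 8 h pools, a ratio of 0.957 (0.632 to 1.45) at 4 h. Cells with 4 or more were 52, 91 and 53, a ratio of 1.71 (1.20 to 2.45) at 4 h and 0.996 (0.666 to 1.49) at 8 h. With 5 or more, a limit set after the values were seen, the ratio at 4 h was 1.43 (0.863 to 2.40). Just outside the rule, cells with exactly 2 rule genes were 123, 152 and 144, and held a median of 2 rule molecules against 4 in cells with exactly 3 and 7, 7 and 6 in all members.

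**Figure D1:**
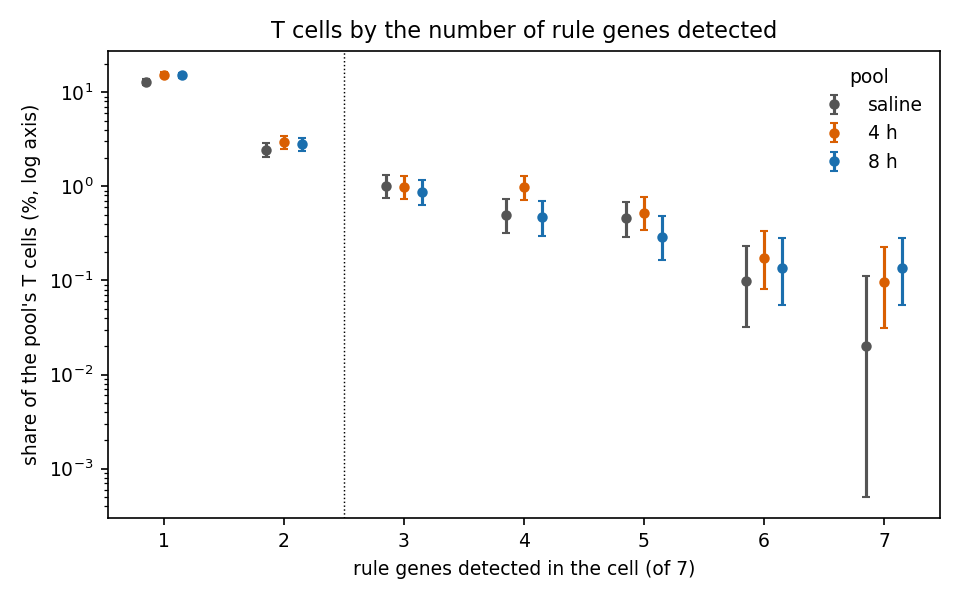
Share of each pool's T cells (%, log axis) in which exactly 1 to 7 rule genes were detected, with 95% Clopper-Pearson intervals; cells right of the dotted line meet the gene rule, 5 cells with Cd79a among them. The 4 h pool stands highest at 4 genes, 0.974% against 0.499% in saline, while the 3 pools lie together at 3 genes.

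Cells with exactly 1 rule gene, which are not members, were more frequent in both treated pools. They made up 12.7% of saline T cells (11.8 to 13.7), against 15.4% (14.4 to 16.4) in the 4 h pool and 15.1% (14.1 to 16.1) in the 8 h pool. Usp18 was the gene in which the pools stood apart: cells with Usp18 alone were 78, 158 and 142, a ratio of 1.98 (1.5 to 2.63) at 4 h and 1.78 (1.34 to 2.38) at 8 h. For each of the other 6 genes alone, the interval of both ratios included 1. Summed over other T cells, Usp18 stood at 9.37, 16.8 and 14.5 CPM, whereas within members it stood at 246, 232 and 283 CPM. The ratio of 4 h to saline was 1.79 (1.43 to 2.24) in other T cells and 0.940 (0.690 to 1.28) in members.

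By lineage genes, the 4 h pool had the highest share of members in each of 3 gates, and its ratio to saline had an interval above 1 in cells with neither Cd4 nor Cd8. In cells that had Cd8a or Cd8b1 and no Cd4 molecule, members were 2.49% in saline (49 of 1969), 3.40% at 4 h (70 of 2057) and 2.11% at 8 h (41 of 1945), a ratio of 1.37 (0.936 to 2.01) at 4 h. Among cells with Cd4 and no Cd8 molecule they were 1.9%, 1.98% and 1.73%, a ratio of 1.04 (0.642 to 1.70) at 4 h. Among cells with neither molecule they were 8 of 869, 28 of 942 and 18 of 896, a ratio of 3.23 (1.43 to 8.20) at 4 h and 2.18 (0.903 to 5.80) at 8 h. Whether the gates differ from each other was not tested. Among cells with Foxp3, the defining factor of regulatory T cells, members were 1 of 248, 5 of 253 and 9 of 275, or 0.403% (0.0102 to 2.23), 1.98% (0.645 to 4.55) and 3.27% (1.51 to 6.12).

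The interferon programme outside the rule was higher in members in every pool. Of 9333 genes outside the rule with at least 50 molecules over both classes in each pool, 156 (1.67%) were over 1.5 times as high in members in all 3 pools, and 251 (2.69%) were under 1/1.5 times. Of 141 interferon genes on 8 lists, 125 were measured, 85 of them were higher in this sense and 0 lower, and the median log2 ratio of the 125 was 1.35, 1.42 and 1.35 in the saline, 4 h and 8 h pools against -0.08, -0.09 and -0.05 over all genes. A gene passed through the summed classes, so low genes had to be high in 1 class to be measured. With at least 500 molecules in each pool, a setting chosen after the values were seen, 92 of 4408 genes (2.09%) were higher and 15 (0.34%) lower, and 63 of the 92 were on the interferon lists.

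**Figure D2:**
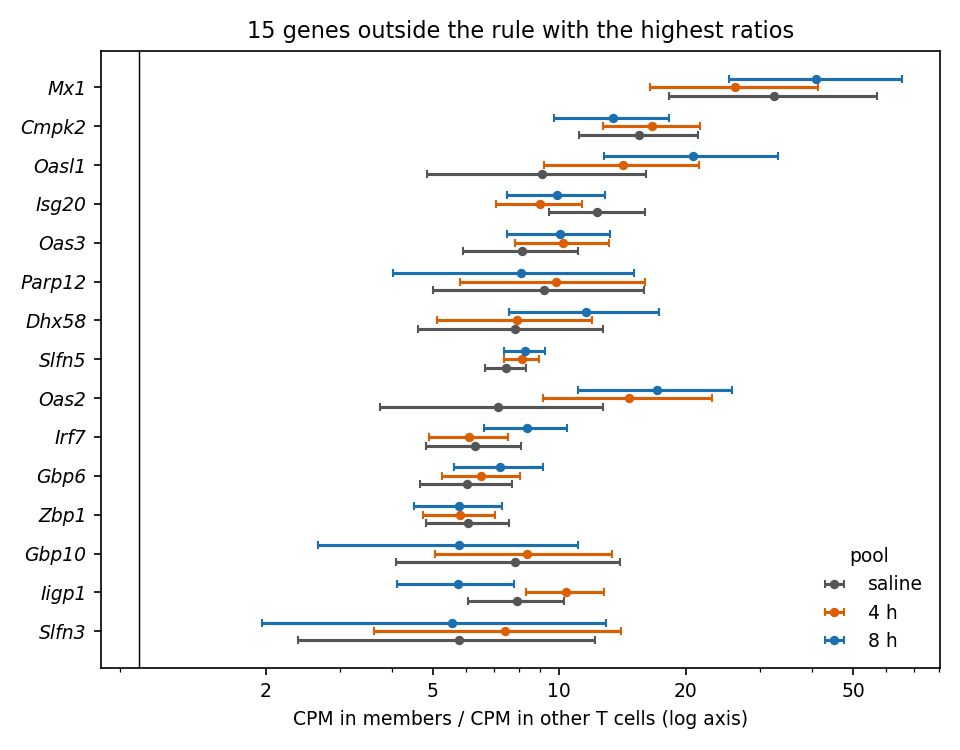
Ratio of CPM in members to CPM in other T cells of the same pool (log axis), with 95% conditional-binomial intervals, for the 15 genes outside the rule with the highest ratios, ranked by the lowest of the 3 pools. Mx1 stands apart with 32.5, 26.2 and 40.8 in the saline, 4 h and 8 h pools, and every interval lies above 1. In each pool Mx1 reached the minimum of molecules only with the molecules of members, the class in which it is high.

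Antiviral effectors gave the highest ratios. Mx1, a GTPase that blocks virus replication, stood at 74.8, 87.8 and 127 CPM in members of the saline, 4 h and 8 h pools against 2.31, 3.36 and 3.11 CPM in other T cells, a ratio over all pools of 32.2 (24.4 to 42.5). Other T cells held 31, 46 and 43 Mx1 molecules in these pools, below the minimum for a measured gene. The gene was measured only because members added 24, 36 and 35, so its entry into the ranking depended on its level in members. Cmpk2, a mitochondrial nucleotide kinase next to Rsad2 in the genome, stood at 168, 210 and 192 CPM against 10.9, 12.6 and 14.3, and Isg20, an exonuclease, at 240, 229 and 247 CPM against 19.5, 25.5 and 25. The oligoadenylate synthetases, which activate RNase L, followed: Oas3 stood at 156, 200 and 225 CPM against 19.1, 19.6 and 22.4, and the ratios over all pools were 9.45 (8.04 to 11.1) for Oas3, 12.6 (9.60 to 16.4) for Oas2 and 14.5 (11.0 to 18.9) for the related Oasl1. Slfn5 stood at 1144, 1343 and 1331 CPM against 154, 165 and 161, a ratio of 7.98 (7.52 to 8.48), and its antisense gene Slfn5os overlaps it. Slfn3, of the same family and on none of the lists, had a ratio of 6.37 (4.05 to 9.68). Of 20 measured antiviral effectors 18 were higher in all pools. Shisa5, with a ratio of 1.28 (1.23 to 1.34), and the deaminase gene Apobec3, with 1.39, were above 1 in each pool but under 1.5.

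Sensors of nucleic acid and the signalling chain were higher as well, to different degrees. Zbp1, a sensor of Z-form nucleic acid, stood at 284, 293 and 283 CPM in members against 46.7, 50.6 and 49.1 CPM, and Dhx58, a regulator of RIG-I-like receptors, at 62.4, 70.7 and 112 CPM against 7.96, 8.90 and 9.70. Ddx58, which encodes RIG-I, had a ratio over all pools of 3.62 (3.26 to 4.01), and Ifih1, which encodes MDA5, one of 6.95 (5.83 to 8.24). Tmem173, which encodes STING, had a ratio of 1.04 (interval from 0.858, including 1). Of 13 measured sensors 10 were higher in all pools.

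Within the signalling list, Irf7, the factor that amplifies type I interferon responses, stood at 218, 249 and 334 CPM in members against 34.7, 40.8 and 39.9 CPM. Stat2 was higher by a ratio of 4.26 (3.72 to 4.87) and its partner Irf9 by 2.21 (1.98 to 2.45). The receptor kinases were not: Jak1 had a ratio of 0.945 (0.880 to 1.01) and Jak2 of 1.13 (0.918 to 1.37). The inhibitor Socs1 had a ratio of 2.01 (1.59 to 2.5) and Socs3 of 1.06 (0.793 to 1.40). Of 13 measured genes of this list 7 were higher in all pools.

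Interferon receptor genes differed little between the classes, apart from Ifnar1 at 8 h. Ifnar1 stood at 81.1, 97.5 and 134 CPM in members against 72.4, 85.2 and 81.1 CPM in other T cells, a ratio of 1.65 (1.16 to 2.29) at 8 h and 1.29 (1.05 to 1.56) over all pools. Ifnar2 stood at 59.3, 68.3 and 54.4 CPM against 53.9, 56.8 and 58.1, a ratio over all pools of 1.09 (0.836 to 1.41). For the gamma receptor, Ifngr1 stood at 150, 129 and 112 CPM against 125, 147 and 126, and Ifngr2 at 31.2, 46.3 and 47.1 CPM against 46.1, 49.6 and 51.6, with ratios over all pools of 0.987 (0.824 to 1.17) and 0.849 (0.610 to 1.15). Il10rb, a chain shared by the lambda interferon and interleukin 10 receptors, had a ratio over all pools of 1.11 (0.844 to 1.43). Of 5 measured receptor genes 0 were higher and 0 lower in all pools, and Ifnlr1 had 0 molecules. Of 20 interferon ligand genes 4 were in the files and 0 reached the minimum of molecules, so the classes could not be compared in them. Ifng had 3 molecules in members, all in the 4 h pool and in 1 cell, and Ifnb1, Ifna2 and Ifnab had 0, which allows up to 2.98 CPM over all members.

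The other lists graded from strong to weak. All 9 measured genes of ISG15 conjugation and the PARP family were higher in all pools, with Dtx3l and Parp14 at ratios of 3.15 (2.88 to 3.43) and 4.31 (3.86 to 4.79) and Parp12 at 9.17 (6.61 to 12.5). Of 16 guanylate-binding proteins and immunity-related GTPases, which attack membranes around intracellular microbes, 15 were higher: Gbp6 stood at 228, 261 and 286 CPM in members against 37.8, 40.0 and 39.7 CPM, and Gbp10 had a ratio over all pools of 7.53 (5.40 to 10.3). Iigp1, which belongs to the same GTPase family and was on none of the lists, stood at 221, 278 and 163 CPM against 27.9, 26.8 and 28.5. Of 15 TRIM, PHF11 and nuclear body genes 12 were higher, among them Trim30a at 3.85 (3.58 to 4.14), Sp100 at 1.86 (1.78 to 1.95) and Daxx at 4.15 (3.72 to 4.61).

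Of the 8 interferon lists, antigen presentation had the lowest median in each pool, at log2 ratios of 0.43, 0.48 and 0.57 in saline, 4 h and 8 h. Of 18 genes of MHC class I presentation 5 were higher in all pools and 17 were above 1 in all pools. The heavy chain H2-K1 stood at 3390, 3596 and 3557 CPM in members against 3078, 3098 and 3113 CPM, a ratio of 1.14 (1.10 to 1.17), and B2m, the light chain, had a ratio of 1.23 (1.19 to 1.26). The peptide-loading gene Tapbp had 2.18 (2.03 to 2.35) and Tap1 1.62 (1.43 to 1.84). Genes outside the lists that were also higher included Rnf213, a large E3 ligase, at 717, 914 and 580 CPM against 144, 150 and 159, and Helz2, at 249, 305 and 279 CPM against 77.3, 79.1 and 77.1, both named here after their values were seen.

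The level of the programme went with the number of rule genes. Against cells of the same pool with 0 rule genes, the median log2 ratio of the 125 interferon genes was 0.28, 0.48, 0.95, 1.47 and 1.85 in saline cells with 1, 2, 3, 4 and 5 to 7 rule genes. It was 0.31, 0.63, 1.12, 1.37 and 1.92 at 4 h, and 0.31, 0.75, 1.08, 1.51 and 1.79 at 8 h. Slfn5 stood at 145, 191, 217, 651, 1137 and 1977 CPM in saline cells with 0, 1, 2, 3, 4 and 5 to 7 rule genes, and at 149, 188, 312, 671, 1078 and 2467 CPM at 8 h. Cells just outside the rule thus lay between the members and the bulk. Depth was not equal along the way: the median cell held 2517, 2491 and 2503 molecules with 0 rule genes and 3046, 2743 and 2847 with 5 to 7, and the part of depth in the gradient was not tested.

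**Figure D3:**
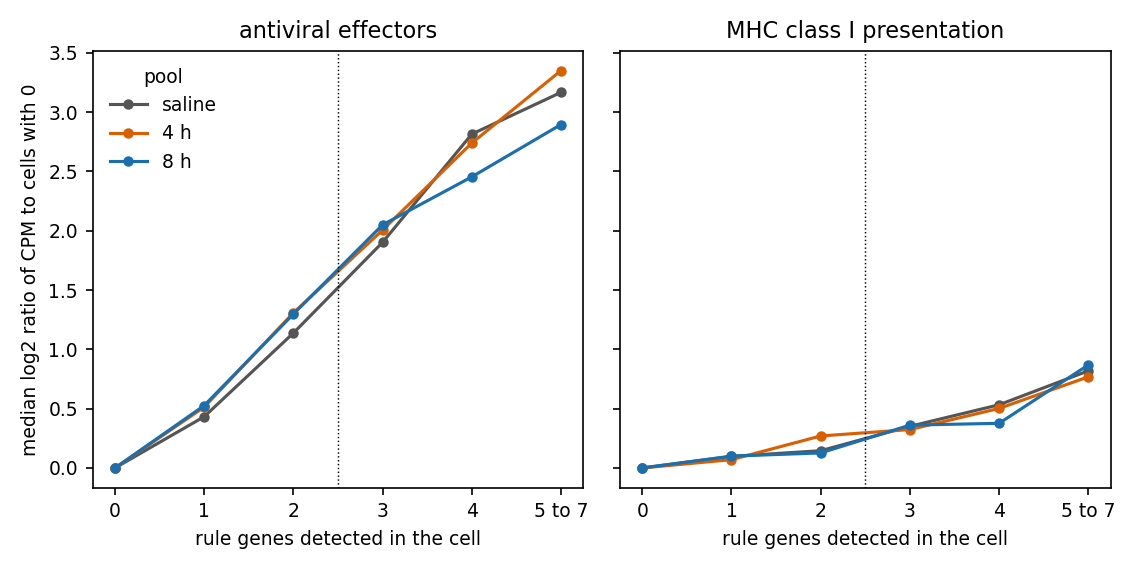
Median log2 ratio of CPM to cells of the same pool with 0 rule genes, by the number of rule genes detected, for 20 antiviral effectors and 18 genes of MHC class I presentation outside the rule; the dotted line separates members, and lines join the values of a pool. Antiviral effectors reach 3.17, 3.35 and 2.90 in saline, 4 h and 8 h cells with 5 to 7 rule genes, and class I genes 0.82, 0.77 and 0.87.

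Cell-cycle genes were lower in members, by less once the largest cells were left out. Mki67, a marker of cycling cells, had 0, 8 and 0 molecules in members (0, 19.5 and 0 CPM) against 47.2, 58.4 and 39.9 CPM in other T cells. Top2a, a topoisomerase of dividing cells, stood at 15.6, 7.31 and 7.25 CPM against 65.7, 72.2 and 72.4, and Stmn1, a tubulin regulator, at 12.5, 9.75 and 18.1 CPM against 57.9, 63.6 and 61.2. Pclaf and Cks2, both tied to proliferation, had ratios over all pools of 0.0699 (0.0144 to 0.204) and 0.217 (0.0794 to 0.473). Of 12 proliferation genes 8 were lower in all pools. However, 494 other T cells over 2 times the median molecules held 1696 of the 1987 Mki67 molecules. Cells that large were not rarer among members, at 18 of 340 (5.29%) against 3.31% of other T cells. Among these large cells Mki67 stood at 54.6 CPM in members (6 molecules) against 466 CPM in other T cells. Any of Mki67, Top2a, Pclaf or Birc5 was found in 22.2% of them (6.41 to 47.6) against 36.6% (32.4 to 41.1). A molecule of Mki67, Top2a, Pclaf or Birc5 was found in 16 of 340 members (4.71%, 2.71 to 7.53) and in 4.94% of other T cells (4.60 to 5.30). Without the large cells the shares were 3.73% (1.94 to 6.42) and 3.86% (3.55 to 4.18). Summed over the pools without them, a setting of this list added after the values were seen, Mki67 stood at 2.23 CPM in members against 7.80 (2 molecules, ratio 0.286, 0.0345 to 1.04) and Top2a at 8.92 CPM against 13.5 (ratio 0.661, 0.284 to 1.31). Of the 12 genes, 12 had a ratio below 1 over all pools, 10 with an interval wholly below 1, and without the large cells 10 had a ratio below 1 and 2 such an interval, Stmn1 (0.380, 0.189 to 0.682) and Mcm3 (0.556, 0.303 to 0.936). The share of cells with 1 of the 4 genes differed by less than its counting error with and without the large cells.

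Igkc, an immunoglobulin chain of B cells, had the lowest ratio of the genes with at least 500 molecules in each pool, at 12.5, 24.4 and 10.9 CPM in members against 82.3, 251 and 269 CPM. Members were required to lack Cd79a and other T cells were not. The remaining named genes that were lower, Zdhhc2, Snn, Tubb2a and Gm43254, had 3 to 7 molecules in all members together. Lists of T cell receptor signalling (19 measured genes), naive and homing genes (10), memory and effector genes (14), early activation (15) and the glucocorticoid response (12) had 0 genes higher and 0 lower in all pools. Single pools could differ: of the 15 early activation genes 8 were lower and 1 higher in saline. At 4 h 2 were lower and 3 higher, and at 8 h 2 were lower and 5 higher. Of 7 regulatory T genes 0 were higher, 1 was lower (Lrrc32, with 3 molecules in members) and 0 were above 1 in all pools.

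With each cell thinned to 1500 molecules, so that depth did not set detection, members had more cells with Cd8 and fewer with Cd4. Cd8 without Cd4 was found in 46.5% of 333 members (41.1 to 52.1) and 39.3% of other T cells (38.5 to 40.1), and Cd4 without Cd8 in 25.5% (20.9 to 30.6) and 31.8% (31.0 to 32.6). By pool, thinned Cd8 was at 49.5% (39.4 to 59.6), 47.1% (38.6 to 55.8) and 42.6% (32.4 to 53.2) of members in saline, 4 h and 8 h. Other T cells had 39.5%, 40.3% and 38.3%. In each single pool the interval of members included the value of other T cells, for Cd8 and for Cd4. Unthinned, the shares over the pools were 47.1% and 38.9% for Cd8, and 31.8% and 38% for Cd4. Thinning left out 7 shallower members (1, 2 and 4 in the saline, 4 h and 8 h pools) and 721 other T cells.

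Among genes that mark T cell states, the interferon-inducible surface genes stood out. Ly6a, which encodes Sca-1, was found in 32.7% of thinned members (27.7 to 38.1) against 15.9% of other T cells (15.3 to 16.5), and Ly6c2 in 25.5% (20.9 to 30.6) against 14.8% (14.2 to 15.4). Cd69, a retention and early activation marker also induced by type I interferon, was found in 14.7% (11.1 to 19) against 8.76% (8.30 to 9.24), and unthinned in 23.8% against 13.8%. By pool, thinned Cd69 was at 13.9% (7.79 to 22.2), 11.6% (6.77 to 18.1) and 20.2% (12.6 to 29.8) in saline, 4 h and 8 h. Against 8.78%, 8.33% and 9.18% of other T cells, only the 8 h interval lay apart. Foxp3 was found in 4.20% (2.32 to 6.95) against 4.16%, and Trdc, a marker of gamma delta T cells, in 4.20% against 3.8%. Foxp3 is 1 of 7 genes of the regulatory T list, whose median log2 ratio of summed CPM was -0.32, -0.81 and -0.81 in the saline, 4 h and 8 h pools. By pool, Foxp3 was found in 0 of 101, 5 of 138 and 9 of 94 thinned members, where 0 of 101 allows a share of up to 3.59%. Trdc was found in 3 of 101, 2 of 138 and 9 of 94 thinned members. At 8 h that was 9.57% (4.47 to 17.4) against 3.53% of other T cells, so this interval lay apart. In saline and at 4 h the interval of members included the Trdc share of other T cells, 3.57% and 4.29%. The class was therefore spread over lineages rather than drawn from 1 of them.

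**Figure D4:**
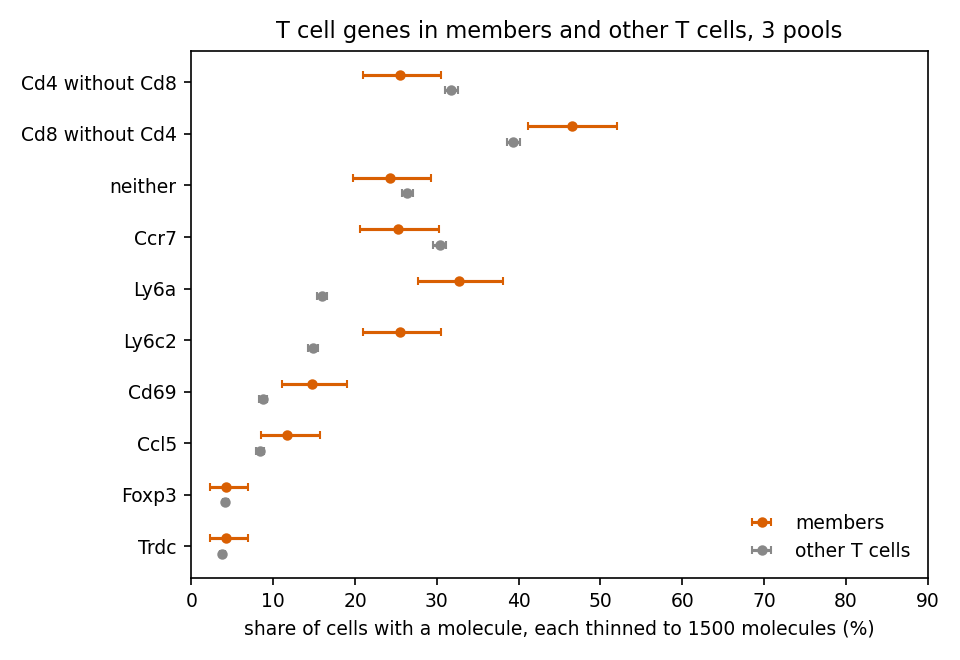
Share of cells (%) with a molecule of each gene, or of the Cd4 and Cd8 combinations, after thinning each cell to 1500 molecules, over the 3 pools, in 333 members and 14217 other T cells, with 95% Clopper-Pearson intervals. Ly6a, Ly6c2 and Cd69 lie to the right in members. Foxp3 and Trdc, taken over the 3 pools, lie together, although single pools differed.

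The programme was found in members of both main lineages. Over the 3 pools, 122 interferon genes outside the rule with at least 50 molecules in each lineage had a median log2 ratio of 1.34 in the 108 members with Cd4 and 1.29 in the 160 with Cd8, against -0.06 and -0.06 over 9339 genes. Slfn5 stood at 1542 CPM in Cd4 members against 214 in other Cd4 cells, and at 922 CPM in Cd8 members against 105. Ly6c2 went opposite ways: it stood at 20.3 CPM in Cd4 members against 57.7 in other Cd4 cells, a ratio of 0.352 (0.129 to 0.769), and at 1395 CPM in Cd8 members against 699, a ratio of 2.0 (1.85 to 2.15). Ccl5, a chemokine of memory CD8 cells, likewise had ratios of 0.513 (0.286 to 0.849) and 1.37 (1.22 to 1.55). Ly6a was above 1 in both lineages, at 2.90 (2.53 to 3.30) and 5.58 (4.57 to 6.76).

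Within members, few interferon genes differed between treatments by the fold used. Of 2589 genes with at least 50 molecules over the 2 pools, 132 (5.1%) were over 1.5 times as high in 4 h members as in saline members and 108 (4.17%) under 1/1.5 times. Of 99 measured interferon genes outside the rule 3 were higher and 0 lower, with a median log2 ratio of 0.13 against 0.02 over all genes. At 8 h against saline 106 of 2141 genes (4.95%) were higher and 86 (4.02%) lower, and of 96 interferon genes 7 were higher and 2 lower, with a median of 0.09 against 0.02. The share of interferon genes past the fold was below that of all genes at 4 h and close to it at 8 h. By direction alone, 76 of 99 interferon genes were above 1 at 4 h and 64 of 96 at 8 h. Among all genes these counts were 1367 of 2589 and 1119 of 2141. In other T cells the median of 130 interferon genes was 0.07 at 4 h, against 0.02 over 10288 genes, and that of 128 was 0.03 at 8 h. Of these interferon genes 99 and 87 were above 1, against 5728 of 10288 and 5079 of 10293 genes.

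**Figure D5:**
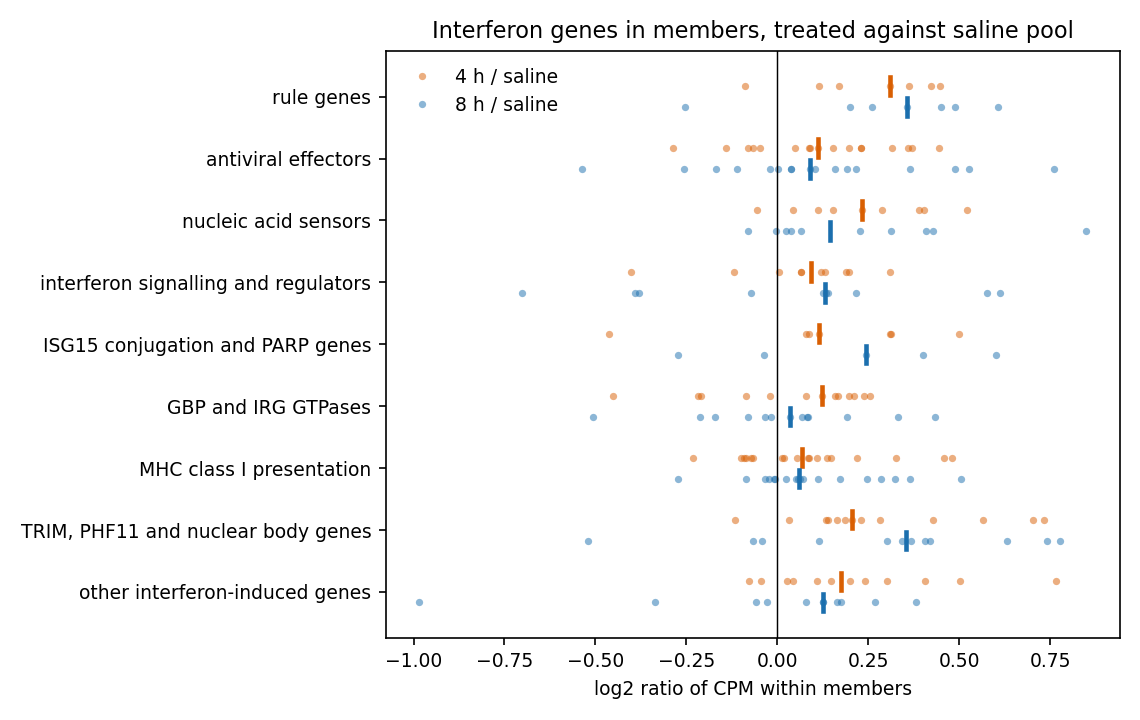
Log2 ratio of CPM within members, 4 h (orange) and 8 h (blue) against the saline pool, 1 point for each measured gene and a bar at the median of each list; both ratios share the saline pool. Points scatter on both sides of 0 in every list outside the rule, with more of them above 0. The medians of these lists lie between 0.04 and 0.35.

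Of the rule genes, Ifit3 stood at 536, 690 and 733 CPM in members of the saline, 4 h and 8 h pools, and both treated pools lay above saline, by 1.29 (1.06 to 1.56) and 1.37 (1.11 to 1.68). Ifit1 stood at 898, 1009 and 1150 CPM, a ratio of 1.12 (0.965 to 1.31) at 4 h and 1.28 (1.09 to 1.51) at 8 h. Rsad2 stood at 172, 234 and 261 CPM, with ratios of 1.36 (0.970 to 1.94) and 1.52 (1.06 to 2.2). Oasl2 stood at 268, 290 and 225 CPM, with ratios of 1.08 (0.813 to 1.44) and 0.838 (0.595 to 1.18). The rule needs such molecules to be present, so these levels describe cells already chosen on them.

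Outside the rule, the interferon genes past the fold were few. Ly6a stood at 390, 663 and 508 CPM in members, 1.70 times saline at 4 h (1.37 to 2.12) and 1.30 times at 8 h (1.02 to 1.67). It was also above saline in cells with 0 rule genes, at 138, 175 and 159 CPM in the saline, 4 h and 8 h pools. Pml, the organiser of nuclear bodies, stood at 112, 183 and 174 CPM, with ratios of 1.63 (1.08 to 2.5) and 1.55 (0.986 to 2.46), and Trim34a at 99.8, 166 and 167 CPM, with 1.66 (1.08 to 2.61) and 1.67 (1.04 to 2.71). At 8 h, Trim12c stood at 395 CPM against 231 in saline (1.71, 1.26 to 2.33) and Irf7 at 334 against 218 (1.53, 1.11 to 2.12). Ms4a4c stood at 72.5 CPM at 8 h against 143 in saline (0.506, 0.283 to 0.872).

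Genes named by the bounds of their intervals lay mostly outside the interferon lists, with Trim12c at 8 h as the exception. Against saline, 4 h members were higher in Cd82, a tetraspanin (115 against 43.7 CPM), Cdkn1b, which encodes the cell-cycle inhibitor p27 (524 against 327), Col4a3bp, a ceramide transporter (134 against 62.4), and the cohesin genes Smc3 (219 against 119) and Stag2 (268 against 140). They were lower in Txnip, a thioredoxin inhibitor (278 against 433 CPM), Wdr1 (227 against 380), Tm9sf3 (222 against 374), Cdc37, a kinase co-chaperone (124 against 221), Sp4 (65.8 against 147) and Zfand6 (102 against 190). The ratios ran from 0.449 (0.269 to 0.736) for Sp4 to 2.62 (1.42 to 5.16) for Cd82. Setd1b, a histone methyltransferase, stood at 122, 239 and 254 CPM in the saline, 4 h and 8 h pools, with ratios of 1.96 (1.34 to 2.93) and 2.09 (1.39 to 3.17).

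At 8 h, members were higher than saline members in Rasgrp1, which couples the T cell receptor to Ras (276 against 119 CPM), Runx1 (152 against 71.7), Anp32e (163 against 68.6) and again Smc3 (225 against 119). They were lower in Npm1, a nucleolar chaperone (1164 against 1637 CPM), Ddit4, an inhibitor of mTORC1 (72.5 against 143), Cotl1 (221 against 352), Rdx (61.6 against 140), Eloc (50.8 against 112) and Snrpg, a splicing protein gene (225 against 380). The ratios ran from 0.439 (0.236 to 0.783) for Rdx to 2.38 (1.40 to 4.16) for Anp32e. These genes were named for the extremes of 2589 and 2141 intervals, and some intervals off 1 arise at that number without a difference. Ddit4 was also lower in other T cells, at 148 CPM at 8 h against 220 in saline. Whether the differences of the named genes are particular to members was not tested.

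Between 8 h and 4 h members, of 101 measured genes of the interferon lists 2 were higher and 4 lower, with a median log2 ratio of -0.01. Of all 2446 genes 106 (4.33%) were higher and 123 (5.03%) lower by the fold of 1.5. The 6 lowest genes named by interval bound were on none of these lists, which does not place them outside the programme. Rnf213 and Ddx60 were higher in members than in other T cells, by 5.03 (4.66 to 5.42) and 5.35 (4.56 to 6.24) over all pools. Rnf213 stood at 580 against 914 CPM (0.635, 0.524 to 0.766), the helicase gene Ddx60 at 116 against 215 (0.541, 0.349 to 0.819) and AW112010 at 428 against 631 (0.678, 0.540 to 0.846). Col4a3bp, Cds2 and Snrpg were also lower, at 0.379 (0.194 to 0.690), 0.420 (0.194 to 0.835) and 0.607 (0.444 to 0.820). Vim, an intermediate filament gene, stood at 406 against 249 CPM (1.63, 1.24 to 2.16), and Sfxn3, Virma, Mapk1ip1l, Fam208a and Ripor2 were higher by 1.55 to 2.54 times.

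Marker lists of other cells differed in direction. B cell markers summed to 15.6, 9.75 and 18.1 CPM in members of the saline, 4 h and 8 h pools against 58.4, 63.2 and 82.4 CPM in other T cells, with 5, 3 and 5 members carrying any. Cd79a is on this list, and members were required to lack it while other T cells were not. The lower sum was therefore set at least in part by the rule, and the rest of the difference was not tested. Monocyte or macrophage markers summed to 37.4, 34.1 and 39.9 CPM against 31.8, 57.9 and 41.9, and erythroid or platelet markers were at 0. Dendritic cell markers summed to 384, 483 and 348 CPM against 162, 192 and 166 and were found in 56, 83 and 53 members. Of these sums Bst2, itself an interferon-induced gene, gave 234, 302 and 196 CPM, while Siglech, Xcr1, Clec9a and Flt3 were at 0. Most of the rest was Ccr9, at 131, 180 and 141 CPM, which other T cells also carried at 114, 137 and 113 CPM. Natural killer markers summed to 178, 178 and 167 CPM against 153, 145 and 148, and were found in 28, 40 and 22 members. Both sums were thus higher in members in every pool, but the dendritic sum came mainly from Bst2 and Ccr9. Of 5 measured natural killer genes 0 were higher and 0 lower in all pools, and 1 was above 1 in all pools. The part of such cells in the other results was not tested.

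Neutrophil markers summed to 3.12, 322 and 0 CPM, and all 132 molecules of the 4 h pool lay in 1 member, which had 44 molecules of S100a8, 68 of S100a9, 5 rule genes and 1 Cd3 molecule. Without that cell the share ratio at 4 h was 1.33 (1.02 to 1.74). Early activation genes such as Egr1 were held in part by single cells. At 4 h 1 member with 5 or more rule genes held 121 of the 498 such molecules. At 8 h another held 84 of the 406. Molecules of this list were found in 90, 118 and 83 members of the saline, 4 h and 8 h pools. In the saline, 4 h and 8 h pools the sum was 1017, 1214 and 1472 CPM in all members. Without the 3 highest members of each pool it was 890, 872 and 1029 CPM. Other T cells, with no cell left out, stood at 1433, 1313 and 1361 CPM.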

How the data were processed

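The authors deposited whole molecule counts per putative cell and gene, adjusted for sequencing errors; the file headers name the BD Rhapsody WTA Multiplex Analysis Pipeline 1.9.1, GRCm38 and GENCODE M19. The authors also deposited a sample tag call for each cell, and their description pairs the tags with the groups. The sources used here do not give the aligner. Cells called for 1 of the 3 tags entered if they held 200 genes or more and if mitochondrial molecules were below 25%, and T cells had a Cd3d, Cd3e or Cd3g molecule. Doublets between pools were removed by the authors' multiplet calls; doublets within a pool and free RNA were not corrected. Cell indices found in 2 pools numbered 0. Molecules were summed per class and pool and divided by the class total, with no prior. In medians, a class without molecules was set at 3 molecules. Each interval covers 95% of counting error.

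Members and gene lists were chosen with earlier results of these data known. Named genes were, for members against other T cells, the 15 highest and 10 lowest by the least extreme of 3 pools with at least 50 molecules; between pools, the 6 highest and 6 lowest by interval bound with no cell above 10% of the molecules; the most abundant genes of each list; and all rule genes, ligands and receptors. Alternatives changed the number of rule genes, Ifit3b, depth, quality limits, Cd3 and Cd79a conditions, large cells, scaling (edgeR 4.0.16 in R 4.3.3), gene minimum and cell weighting. The ratio code was tested on simulated data. Calculations used scipy 1.17.1, numpy 2.4.6 and pandas 2.3.3 in Python 3.11.15, and figures used matplotlib 3.10.9. A few genes that this rule names are not reported here.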

Additional observations from a re-analysis of the deposited data

Results flagged for a closer look

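The point values of the share of members lay on opposite sides of saline in the treated pools, at 1.34 times at 4 h (1.03 to 1.75) and 0.939 times at 8 h, where the interval (from 0.704) includes 1 and a move below saline is not shown. The share at 8 h was 0.700 times that at 4 h (0.535 to 0.913, counting error only). Both use the same saline pool, each treatment is 1 pool, and the difference was not tested.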

How the results depend on the processing

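No paired analysis was possible because each treatment is 1 pool and the deposited samples are 2 libraries of 1 capture. The share ratio at 4 h ran from 1.17 (at least 3 Cd3 molecules) to 1.71 (at least 4 rule genes) and stayed above 1 in all 10 alternatives; at 8 h it ran from 0.873 (thinned) to 1.05 (at least 2 rule genes), within the interval of the main value. The median log2 ratio of interferon genes in members against other T cells moved from 1.35 to 1.63 in saline with at least 4 rule genes and stayed within its interval in the other alternatives and pools. Within members, the median ran from 0.10 to 0.17 at 4 h and from 0.06 to 0.14 at 8 h. The share of members with Cd4 was 31.8% unthinned against 25.5% thinned. Without cells over 2 times the median molecules, 5 ratios passed 1 without showing a direction: Mki67 at 1.35 in saline and 1.60 at 8 h and Pclaf at 3.76 at 8 h, where members held 0 molecules and were set at 3, and Pclaf at 1.07 in saline and 1.14 at 4 h, where they held 1 molecule each. Over all pools these ratios were 0.286 for Mki67 and 0.757 (0.0905 to 2.80) for Pclaf. Of 666 recalculated ratios of named genes 634 stayed within their interval, 27 moved and 5 are those above. Depth limits rare genes: 3 molecules are 7.31 to 10.9 CPM in the members of a pool.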
